A study of Mus musculus with 24 samples.

Results

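The genes described here are 8 members of the epidermal growth factor (EGF) family system of ligands and receptors, chosen by name from the 55335 mouse genes measured. They comprise 5 ligand genes, Areg (amphiregulin), Ereg (epiregulin), Hbegf (heparin-binding EGF-like growth factor), Tgfa (transforming growth factor alpha) and Btc (betacellulin), and 3 receptor genes, Egfr, Erbb2 and Erbb3. Their levels were read in 24 libraries of RNA from whole tumour tissue of mice, 3 libraries for each combination of tumour line, genotype and treatment. The tumours were grown from MC38, a colon adenocarcinoma line, or B16, a melanoma line. Within each line the cells were either parental with intact Chek2 (WT), the gene of the checkpoint kinase CHK2, or carried a Chek2 knock-out (KO). Mice received PBS or anti-PD-1, an antibody against the inhibitory T cell receptor PD-1. The series' design text places the knock-out in the cells of the line and describes no change to the mice. The labels do not give the age, strain or sex of the mice, the antibody dose, or whether a knock-out line was 1 clone or several, and nothing in them states that each library was made from its own mouse. The p-values therefore set differences of group means against the spread of these libraries, which may not be the spread between mice or clones.

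EGF family ligands are made as membrane proteins and released by proteases such as ADAM17. Areg and Tgfa bind EGFR, whereas Ereg, Hbegf and Btc bind EGFR and ERBB4. Ligand binding pairs the receptors. ERBB2 has no known ligand and acts as a partner, and ERBB3 has a weak kinase and signals through PI3K when paired. Downstream, the RAS and ERK cascade switches on early response genes and its own inhibitors. In colon epithelium and colon carcinoma Areg and Ereg are well known EGFR ligands, whereas ERBB3 is prominent in melanocytes and Schwann cells.

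In the GENCODE annotation of GRCm38, Areg (ENSMUSG00000029378, chr5:91139599-91148432) and Ereg (ENSMUSG00000029377, chr5:91074622-91093646) lie side by side on the plus strand. Btc (ENSMUSG00000082361) lies beyond them at chr5:91357261-91402994 on the minus strand. Tgfa (ENSMUSG00000029999) lies at chr6:86195223-86275719, Egfr (ENSMUSG00000020122) at chr11:16752203-16918158, Erbb2 (ENSMUSG00000062312) at chr11:98412470-98437716 and Erbb3 (ENSMUSG00000018166) at chr10:128567523-128589652. Hbegf is ENSMUSG00000024486. The deposited values are per gene, not per transcript. Areg and Ereg were the tested members with the largest log2 differences between MC38 genotypes. The start of Areg is shown because Areg had the largest log2 difference of the tested members. The 300 bases run from 250 before to 50 after the RefSeq start (chr5:91139349-91139648, plus strand, GRCm38.p6), and the capitals mark 2 motifs found by an exact search of both strands.

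Areg promoter: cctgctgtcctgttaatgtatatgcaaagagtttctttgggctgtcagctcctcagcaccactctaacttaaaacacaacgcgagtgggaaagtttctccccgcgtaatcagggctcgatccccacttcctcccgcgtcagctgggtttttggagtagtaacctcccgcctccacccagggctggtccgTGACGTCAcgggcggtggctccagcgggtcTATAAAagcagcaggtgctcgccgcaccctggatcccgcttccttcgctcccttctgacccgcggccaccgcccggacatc

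The first capitals are TGACGTCA, the full cyclic AMP response element, whose first base lies at -61 from the start. The second run of capitals, known as the TATA box, has its first base at -31. GGGCGG, the GC box, was also found, at -52 and 38, and TGANTCA, the AP-1 motif, was not found in this window. Of 32851 RefSeq promoters of the same 300 bases, 1.79% held TGACGTCA, 13.6% TATAAA, 35.7% GGGCGG and 7.81% TGANTCA. The promoters of Tgfa, Btc, Egfr and Erbb2 were searched in the same way and held none of TGACGTCA, TATAAA and TGANTCA. A match is a run of letters and not a measured site.

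Levels are given in FPKM, fragment counts scaled by transcript length and library size, so levels of different genes can be set side by side per length. Tests used limma on log2(FPKM + 1) with Benjamini-Hochberg adjustment over all genes tested in a line, and a gene was called when its adjusted p was under 0.05. A log2 difference on this scale understates the change of low genes. A gene entered the test when 3 or more of a line's 12 libraries reached 1 FPKM. By this filter 6 members were tested in MC38 (all but Tgfa and Btc) and 3 in B16 (Hbegf, Erbb2 and Erbb3). The remaining members are described by their levels.

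Chek2 itself was lower in every KO library than in every WT library of the same line and treatment. In MC38 under PBS it was at 5.30 ± 0.775 FPKM in WT and 2.17 ± 0.240 in KO (SD, n = 3 each; limma adjusted p = 0.000178), and in B16 the corresponding means were 7.60 ± 0.389 and 5.66 ± 0.0218 (limma adjusted p = 0.106, not called). Summed FPKM ran from 310868 to 398474 per library, estimated depth from 13600000 to 24800000 reads, and the correlation of replicates from 0.979 to 0.992. The melanocyte markers summed to 5104 to 6554 FPKM in the B16 libraries and 1.01 to 4.03 in the MC38 libraries. In MC38 the colon transcription factor Cdx2 was listed at 0 in all 12 libraries. Of the 10 epithelial markers 9 had a median under 1 FPKM, the exception being Cdh1 (0.616 to 3.01), and single libraries reached 5.59 for Epcam, 9.44 for Krt8, 13.9 for Krt18 and 16.5 for Krt19. The 3 B16 KO anti-PD-1 libraries stood apart, with summed FPKM of 375193 to 398474 against at most 344059 in any other library, and muscle markers summing to 10.4, 177 and 2013 FPKM against 1.17 to 2.87 in the other B16 groups. Their erythroid markers summed to 1015 to 15560 FPKM and overlapped those of the WT anti-PD-1 (334 to 2567) and KO PBS (199 to 3648) groups. These libraries enter every B16 comparison except those under PBS and within WT. High muscle sums were not confined to them. In MC38 the muscle sums ran from 1.10 to 31.9 FPKM in WT PBS and 2.01 to 127.6 in KO PBS tumours. Under anti-PD-1 they ran from 12.55 to 318 in WT. In KO given anti-PD-1 the lowest was 31.25 and the highest, in replicate 2, lay above 318. In bulk tissue, fewer cells of a type and less RNA per cell cannot be told apart.

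In MC38 tumours Areg was far higher in KO than in WT under both treatments. Under PBS the 3 WT libraries read 0.795, 0.706 and 0.153 FPKM and the 3 KO libraries 4.98, 6.51 and 4.33. Under anti-PD-1 the WT libraries read 1.64, 0.576 and 0.0533 FPKM and the KO libraries 3.40, 11.2 and 7.11. All 6 KO libraries lay above all 6 WT libraries, and the values within a group varied widely, from 3.40 to 11.2 in KO tumours given anti-PD-1.

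The mean of Areg was 9.57 times higher in KO under PBS (5.28 ± 1.12 against 0.551 ± 0.348 FPKM), a log2 difference of 2.03 ± 0.386 (SE; limma adjusted p = 0.00454). In mice given anti-PD-1 the ratio of means was also 9.57 (7.25 ± 3.92 against 0.757 ± 0.809), and limma gave a log2 difference of 2.21 ± 0.386 with an adjusted p of 0.00538. That ratio depends strongly on single libraries. With 1 library left out it ran from 6.535 (without WT replicate 3) to 23.0 (without WT replicate 1). Under PBS the ratio ran from 7.03 to 12.3 in the same way. The WT values rest on few reads. At the estimated depths they correspond to 3.0 to 16.5 reads under PBS and 1.0 to 40.2 under anti-PD-1, against 82.6 to 187.6 and 64.7 to 234.4 in KO. Areg passed the filter through the 6 KO libraries and 1 WT library, and in a fit with no filter it was also called under both treatments. With a pseudocount of 0.1 in place of 1 the log2 differences were 3.22 and 3.54. The genotype effect on Areg did not differ detectably between treatments (interaction 0.18 ± 0.545, limma adjusted p = 0.893), and anti-PD-1 against PBS was not called in either genotype.

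Ereg, the neighbour of Areg, differed in the same direction and with a narrower spread. Under PBS the WT libraries read 2.21, 2.49 and 2.93 FPKM and the KO libraries 7.04, 8.20 and 6.31. Under anti-PD-1 the WT libraries read 2.36, 3.29 and 3.19 FPKM and the KO libraries 8.14, 8.13 and 10.4. No WT library reached the lowest KO library.

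The mean of Ereg was 2.82 times higher in KO under PBS (7.18 ± 0.955 against 2.55 ± 0.363 FPKM), a log2 difference of 1.21 ± 0.133 (limma adjusted p = 0.000297). With anti-PD-1 it was 3.02 times higher (8.89 ± 1.31 against 2.94 ± 0.509), a log2 difference of 1.33 ± 0.133 (limma adjusted p = 0.000342). Its interaction with treatment was 0.12 ± 0.189 (limma adjusted p = 0.767). Across the 12 MC38 libraries, which hold both genotypes, the log2 levels of Areg and Ereg had a Pearson r of 0.877.

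Areg and Ereg were the 2 members called under PBS in MC38, of 6 tested. The background was high, since 23.4% of the 14209 genes tested were called in that comparison and 20.4% had every KO library above every WT library. Under anti-PD-1, 4 of 6 members were called, against 12.1% of all genes, and 16% of all genes were higher in KO without overlap. Averaged over treatments 3 were called (Areg, Ereg and Erbb3), against 27.4% of all genes, and Areg's log2 difference was 2.12 ± 0.273 (limma adjusted p = 0.000321) and Ereg's 1.27 ± 0.0943 (limma adjusted p = 1.37e-05).

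**Figure D1:**
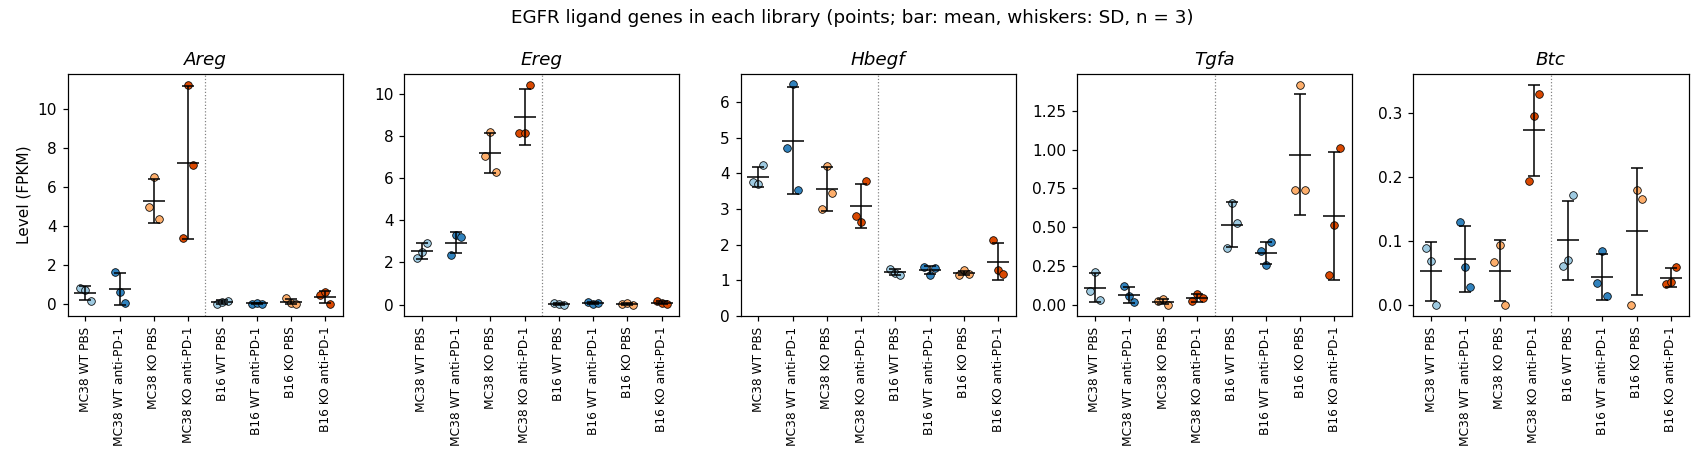
Levels of the 5 EGFR ligand genes in FPKM (vertical axes, 1 scale per gene) in the 8 groups; points are libraries, the long bar is the mean and the whiskers are the SD (n = 3). Areg and Ereg in the MC38 KO groups lie above every other group, Hbegf is higher in all MC38 than in all B16 libraries, and Tgfa is higher in B16.

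Hbegf, a ligand that tumour cells, macrophages and other stromal cells can make, did not follow Areg and Ereg. In MC38 it read 3.76, 3.70 and 4.22 FPKM in WT under PBS and 3.01, 4.22 and 3.45 in KO. Under anti-PD-1 it read 4.70, 6.51 and 3.54 in WT and 2.81, 2.64 and 3.78 in KO. The groups overlapped under both treatments. The KO mean was lower under anti-PD-1 (3.08 ± 0.613 against 4.92 ± 1.497 FPKM), with a log2 difference of -0.52 ± 0.174 that was not called (limma adjusted p = 0.0771). Without WT anti-PD-1 replicate 3 this difference was -0.69 (limma adjusted p = 0.0308), so the call turns on that library.

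Tgfa was nearly absent from MC38, at 0 to 0.212 FPKM, and low in B16. In B16 under PBS it read 0.364, 0.654 and 0.527 FPKM in WT and 0.743, 1.42 and 0.743 in KO, without overlap, as 7.54% of all tested B16 genes did in that direction. Under anti-PD-1 it read 0.344, 0.257 and 0.402 FPKM in WT and 0.193, 0.515 and 1.01 in KO, with overlap. It did not pass the filter in either line, and the last of these groups alone spanned 0.193 to 1.01 FPKM.

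Btc, which shares chromosome 5 with Areg and Ereg, stayed at or under 0.330 FPKM in all 24 libraries. The 3 MC38 KO anti-PD-1 libraries, at 0.194, 0.296 and 0.330, were the highest of all and did not overlap the other MC38 groups, whose libraries ran from 0 to 0.129. For anti-PD-1 against PBS in KO, 14.6% of the tested genes were higher without overlap. It passed the filter in neither line. In the fit with no filter, KO against WT under anti-PD-1 gave 0.25 ± 0.0547 on the log2 scale (limma adjusted p = 0.0386).

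The other ligands of the family, Egf, Epgn and Nrg1 to Nrg4, and the receptor Erbb4 were all under 1 FPKM in every library, so none of these 7 genes was tested. Nrg3 was listed at 0 in all 24 libraries. Nrg1, a neuregulin that binds ERBB3 and ERBB4, ran from 0.204 to 0.539 FPKM in MC38 and from 0 to 0.0291 in B16. Epgn (epigen), which lies 39.4 kb before Ereg, ran from 0.0194 to 0.240 FPKM in MC38.

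The make-up of the ligand transcripts changed between the MC38 genotypes. The 5 ligands summed to 7.16 ± 0.195 FPKM in WT and 16.1 ± 2.62 in KO tumours given PBS. With anti-PD-1 the sums were 8.76 ± 1.84 and 19.5 ± 4.32. Hbegf made up 54.4% of the sum in WT PBS tumours and 22.2% in KO PBS tumours. Areg made up 7.79% and 32.6%, and Ereg 35.5% and 44.8%. In B16 the sum was 1.74 to 2.58 FPKM as group means, with Hbegf at 50.3% to 73.7% and Tgfa at 19.1% to 38.9% of it. These shares restate the levels above and were not tested.

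**Figure D2:**
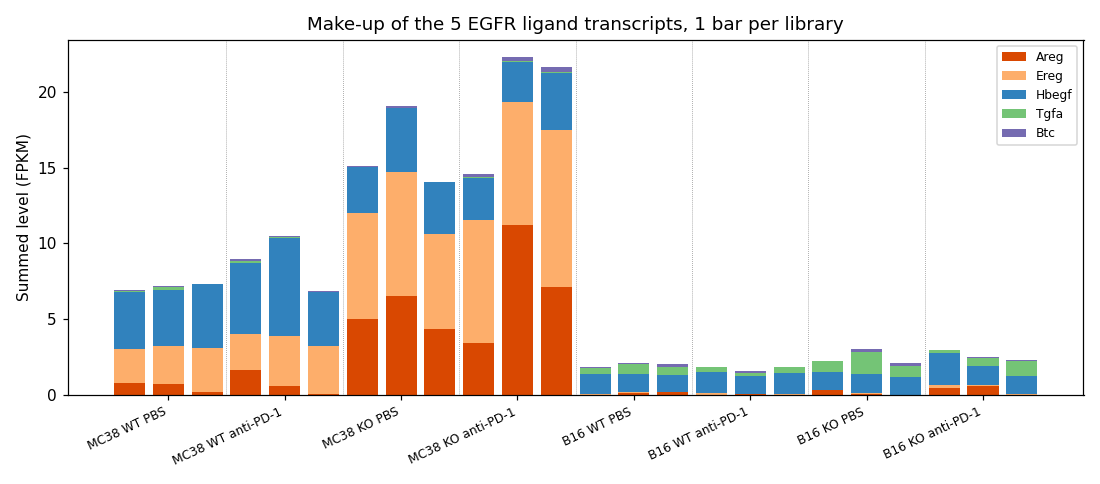
Summed level of the 5 EGFR ligand genes in FPKM (vertical axis), 1 bar per library in the 8 groups, coloured by gene. The 6 MC38 KO bars reach 14.1 to 22.4 FPKM and are mostly Areg and Ereg, while the 6 MC38 WT bars reach 6.83 to 10.5 and are mostly Hbegf.

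Egfr, the receptor for all 5 ligands, was low in MC38 tumours and near 0 in B16. In MC38 under PBS it read 2.04, 2.48 and 1.80 FPKM in WT and 1.43, 1.22 and 1.57 in KO. The KO libraries all lay below the WT libraries, as for 19.5% of all genes, and the log2 difference of -0.37 ± 0.178 was not called (limma adjusted p = 0.162). Under anti-PD-1 it read 2.02, 1.69 and 1.47 in WT and 1.07, 2.57 and 1.55 in KO, with overlap. Fibroblasts express Egfr, and the summed fibroblast markers were likewise lower under PBS in KO (458 to 524 FPKM) than in WT (773 to 982); their part in the Egfr values was not tested.

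Erbb2, the partner receptor, differed little between genotypes under PBS, at 7.13, 5.53 and 6.27 FPKM in MC38 WT and 5.85, 5.76 and 7.01 in KO. Under anti-PD-1 it read 7.33, 7.40 and 6.07 FPKM in WT and 5.64, 4.43 and 4.90 in KO. The KO libraries were all below the WT libraries, as for 18% of all genes. The mean fell to 0.72 of the WT mean, a log2 difference of -0.41 ± 0.114 (limma adjusted p = 0.0421). This call was lost in 9 of 20 alternatives, among them the fit of the 2 groups alone (limma adjusted p = 0.0641) and the fit without WT anti-PD-1 replicate 1 or 2 (0.126 and 0.116) or KO anti-PD-1 replicate 2 or 3 (0.13 and 0.113).

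Erbb3 was lowest in MC38 KO tumours given anti-PD-1. There it read 3.31, 3.17 and 2.71 FPKM, against 4.84, 4.64 and 5.19 in WT given anti-PD-1 and 4.29, 5.07 and 5.29 in KO given PBS. WT tumours given PBS read 5.07, 6.37 and 4.89. The KO anti-PD-1 libraries lay below all 9 others. Lower without overlap than KO under PBS were 15.9% of all tested genes.

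Against WT under anti-PD-1 the mean of Erbb3 was 0.627 of the WT mean, a log2 difference of -0.54 ± 0.105 (limma adjusted p = 0.00896). Against KO under PBS the log2 difference was -0.53 ± 0.105 (limma adjusted p = 0.0102), in a comparison in which 8.99% of all genes were called and Erbb3 was 1 of 6 tested members called. Both comparisons use the same 3 KO anti-PD-1 libraries. Averaged over treatments Erbb3 differed by -0.33 ± 0.0743 between KO and WT (limma adjusted p = 0.00755). The interaction was -0.41 ± 0.149 and was not called (limma adjusted p = 0.159). In the fit of all 24 libraries all 3 Erbb3 calls were lost (limma adjusted p = 0.074, 0.0922 and 0.076 for the averaged difference). Markers of Schwann cells, which express Erbb3, summed to 22.3 to 44.2 FPKM in these KO anti-PD-1 tumours, 23.2 to 48.6 in WT anti-PD-1, 25.4 to 41.6 in KO PBS and 58.7 to 62.6 in WT PBS tumours, and their part in the Erbb3 values was not tested.

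**Figure D3:**
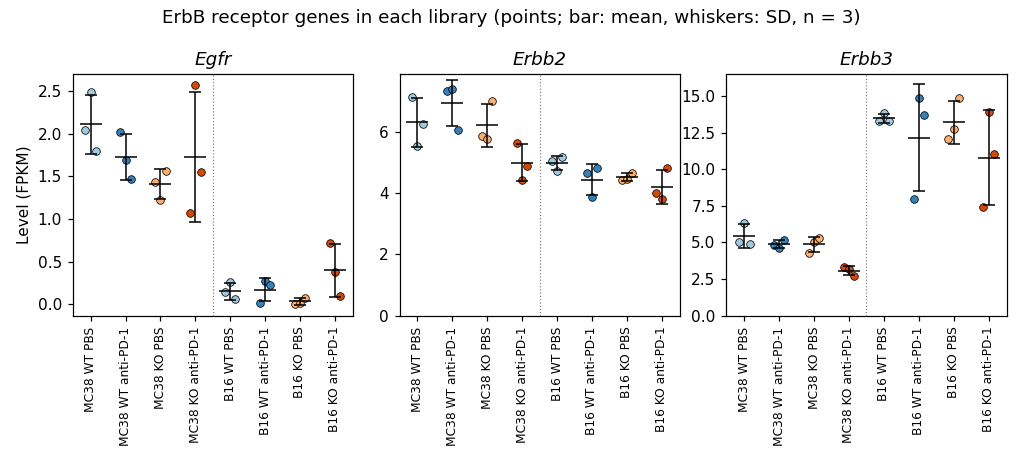
Levels of the 3 receptor genes in FPKM (vertical axes, 1 scale per gene) in the 8 groups; points are libraries, the long bar is the mean and the whiskers are the SD (n = 3). Erbb3 is above 7.40 FPKM in every B16 library and under 6.37 in every MC38 library, with the MC38 KO anti-PD-1 group lowest.

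Anti-PD-1 against PBS in WT MC38 tumours gave no call among the 6 members tested by limma and none at an unadjusted p under 0.05. Across all genes limma called 0% of 14209 in that comparison, and 1953 had an unadjusted p under 0.05. No member was called in the MC38 interaction of genotype and treatment, in which 2.44% of all genes were called, and 2 members (Erbb2 and Erbb3) had an unadjusted p under 0.05.

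In B16 none of the 3 tested members was called by limma in any of the 6 comparisons, and none had an unadjusted p under 0.05. With protein-coding genes rescaled to equal sums 1 was called, Erbb2 for the averaged KO effect. The background differed widely, with 0.47% of the 13627 genes called for KO against WT under PBS, 40.8% under anti-PD-1, 0% for anti-PD-1 in WT (281 genes had an unadjusted p under 0.05), 43.9% for anti-PD-1 in KO, 26.5% for KO averaged over treatments and 23.5% for the interaction. Hbegf ran from 1.14 to 2.12 FPKM over the 12 libraries and Erbb2 from 3.79 to 5.19. Erbb3 was the most abundant member in B16. It read 13.3, 13.8 and 13.3 FPKM in WT under PBS and 12.1, 12.7 and 14.9 in KO. With anti-PD-1 the WT libraries read 7.98, 14.8 and 13.7 FPKM and the KO libraries 7.41, 13.9 and 11.1. A single library in each anti-PD-1 group was low, and the groups overlapped.

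The values of Areg and Ereg in B16 were low in both genotypes, at no more than 0.587 FPKM in any library. Areg read 0, 0.0993 and 0.161 FPKM in WT under PBS and 0.281, 0.0485 and 0 in KO. Under anti-PD-1 it read 0, 0.047 and 0 in WT and 0.426, 0.587 and 0 in KO. Ereg did not exceed 0.198 FPKM in any B16 library. At the estimated depths the highest Areg value in B16 corresponds to 17.7 reads.

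**Figure D4:**
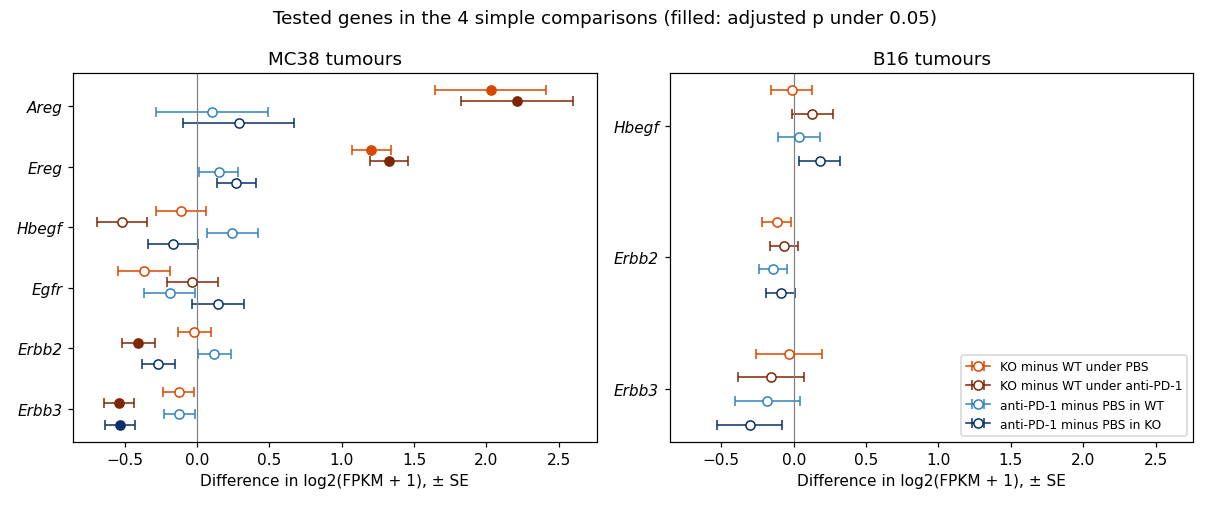
Log2 differences of FPKM + 1 (horizontal axes, ± SE) for the tested genes in 4 comparisons, MC38 on the left and B16 on the right; filled symbols passed an adjusted p of 0.05. Areg and Ereg are 1.21 to 2.21 higher in MC38 KO under both treatments, Erbb2 and Erbb3 are lower in MC38 KO given anti-PD-1, and no B16 symbol is filled.

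Over the 24 libraries the members set the lines apart. All 6 members tested in the fit of both lines were called for MC38 against B16, where 79.6% of the 15655 genes tested were called as well. Areg, Ereg and Egfr reached 1 FPKM in no B16 library and entered this fit through MC38 alone, so their direction here follows from the filter. Ereg was higher in MC38 by 2.45 ± 0.0578 on the log2 scale (limma adjusted p = 1.83e-18), Areg by 1.55 ± 0.157, Egfr by 1.20 ± 0.0864, Hbegf by 1.06 ± 0.0789 and Erbb2 by 0.35 ± 0.053. Erbb3 was lower in MC38, with a difference of -1.27 ± 0.0927 (limma adjusted p = 1.26e-10). For Areg, Ereg, Hbegf and Egfr every MC38 group mean was above every B16 group mean, and for Erbb3 the reverse held. Erbb3 made up 69.1% to 74.3% of the 3 receptors' summed FPKM in the B16 groups and 31.3% to 39.2% in the MC38 groups, while Egfr made up 0.18% to 2.87% and 11.3% to 17.6%.

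The KO effect averaged over treatments was larger in MC38 than in B16 for Areg, by 1.92 ± 0.315 in log2 units (limma adjusted p = 0.000152), and for Ereg, by 1.24 ± 0.116 (limma adjusted p = 5.13e-07). These were 2 of 6 members called, against 31.3% of all genes. Both genes were under 1 FPKM in every B16 library and entered this fit through MC38 alone. The B16 effect was thus measured near the floor, and the difference between lines largely restates the MC38 effect. With the PBS libraries alone, which leaves out the B16 KO anti-PD-1 libraries and was chosen after the values were seen, the differences were 2.00 and 1.20 (limma adjusted p = 0.00152 for each).

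Among the neighbours of Areg, Ereg ends 45.9 kb before Areg starts, and Btc starts 208.8 kb after Areg ends. The window of 1 Mb on each side of Areg, chosen after the values were seen, held 26 protein-coding genes, of which 23 were no members and 11 of those passed the filter in MC38. For KO against WT under PBS these 11 ran from -0.59 to 0.49 on the log2 scale. Afp was called higher (0.49 ± 0.161, limma adjusted p = 0.0491) and G3bp2 lower (-0.22, limma adjusted p = 0.0316). Under anti-PD-1 none was called higher and 2 were called lower, the chemokine gene Cxcl1 (-0.63, limma adjusted p = 0.0225) and Uso1 (-0.24, limma adjusted p = 0.0154). The 11 tested genes thus lay well under Ereg and Areg on the log2 scale. The other 12 did not pass the filter. Of these, Cxcl2 was higher in KO without overlap under PBS (0.600 against 0.1525 FPKM), as 20.4% of tested genes were. Rassf6 was higher without overlap under anti-PD-1 (0.145 against 0.0246 FPKM), as 16% of tested genes were. The rest of the 12 overlapped under both treatments.

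**Figure D5:**
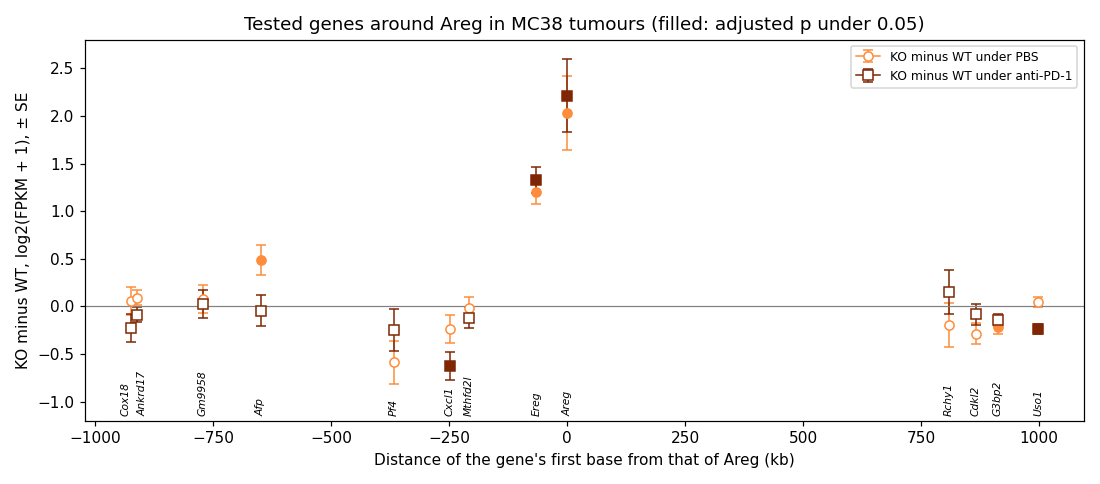
KO minus WT difference in log2(FPKM + 1), ± SE (vertical axis), of the genes tested in MC38 within 1 Mb of Areg against the distance of their first base from that of Areg in kb (horizontal axis); circles are PBS, squares are anti-PD-1 and filled symbols passed an adjusted p of 0.05. Ereg and Areg stand at 1.21 to 2.21 and the other 11 genes between -0.63 and 0.49.

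Of other markers in MC38, Krt14 was higher in KO than in WT under both treatments, as Areg was, whereas the epithelial sums were not. The summed keratinocyte and hair follicle markers, 10 genes, ran from 5.07 to 5.86 FPKM in WT PBS tumours, 7.24 to 28.1 in WT anti-PD-1, 18.1 to 30.4 in KO PBS and 27.0 to 42.3 in KO anti-PD-1. Most of this was Krt14, at 3.19 to 4.19 FPKM in WT PBS tumours and 24.9 to 37.0 in KO anti-PD-1 tumours. Krt10 ran from 1.13 to 8.82 FPKM over the 12 libraries. The other 8 markers had medians under 0.1 FPKM, among them Krt5 and Trp63, although Krt1 reached 2.58, Krt5 1.98 and Lor 1.82 in single libraries. The summed epithelial markers, also 10 genes, ran from 4.03 to 19.3 FPKM in WT PBS, 1.24 to 12.2 in WT anti-PD-1, 1.63 to 4.38 in KO PBS and 1.95 to 51.3 in KO anti-PD-1 tumours. Among them, Cdh1 under PBS was lower in KO (0.616 to 0.899 FPKM) than in WT (1.80 to 3.01), as 19.5% of tested genes were without overlap. Under anti-PD-1 Cdh1 overlapped, at 1.19 to 2.45 FPKM in KO and 1.065 to 1.65 in WT.

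The KO anti-PD-1 library with the highest Areg value, replicate 2, also had the highest epithelial sum in MC38, with Epcam at 5.59 FPKM. The same library had the highest MC38 sums of muscle, adipocyte (48.7 FPKM), endothelial (55.9), fibroblast, macrophage, T cell and keratinocyte markers. Its Schwann and erythroid sums were not the highest. The epithelial sum was thus 1 of several high marker sums there. Without this library Areg differed by 1.87 on the log2 scale (limma adjusted p = 0.0185). The WT library with the highest Areg value, anti-PD-1 replicate 1, had Krt14 at 12.5 and Krt10 at 8.82 FPKM, and without it the difference was 2.56 (limma adjusted p = 0.00559). Macrophage markers were lower in KO than in WT under PBS (512 to 1290 against 1671 to 1961 FPKM), as were T cell markers (4.10 to 7.27 against 32.8 to 45.5). Under anti-PD-1 the macrophage sums were 1803 to 2388 FPKM in KO and 1626 to 1856 in WT, and the T cell sums 31.8 to 53.2 and 37.0 to 39.6. The part of all these markers, keratinocyte, epithelial, muscle, adipocyte, endothelial, fibroblast, macrophage and T cell, in the Areg and Ereg values was not tested.

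The protein-coding genes whose log2 levels were most like each called member over the 12 MC38 libraries are given as a description, since the libraries share their genotype and treatment groups. For Areg they were Nsd1 (r = 0.972), Dpep1 (0.957) and Npr3 (0.956). For Ereg they were Ampd3 (0.984), Zfp365 (0.977) and Gm19410 (0.976). For Erbb2 they were Ppp1ca (0.94), Smad4 (0.924) and Tcf3 (0.921), and for Erbb3 Pknox2 (0.974), Tmem263 (0.96) and Sec16b (0.957).

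Of 58 listed genes of ligands, shedding, proximal signalling, inhibition and ERK output, 50 were tested in MC38. Under PBS 9 were called higher and 2 lower in KO, a share near the 23.4% of all genes. By list, 5 of 18 adaptor and kinase genes, 1 of 7 shedding genes, 2 of 13 inhibitors and 1 of 12 ERK output genes were called higher, and 1 inhibitor and 1 ERK output gene lower. The median log2 differences were 0.04, 0.10, 0.04 and 0.21 in that order, beside 0.01 for all genes. Without the filter on low values 7 of the pathway genes were called.

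Among ERK output genes, Spry4, an inhibitor of RAS signalling induced by ERK, rose under PBS from 2.63 to 4.68 FPKM (log2 difference 0.66 ± 0.152, limma adjusted p = 0.0113), whereas its relative Spry2 fell from 11.96 to 7.57 (-0.58 ± 0.153, limma adjusted p = 0.0203). Spred3, another RAS pathway inhibitor, rose from 4.97 to 7.56 FPKM (adjusted p = 0.0106 by limma). Ptpn1, a phosphatase that acts on receptor tyrosine kinases, fell from 13.0 to 9.67 (limma adjusted p = 0.0108). Adam17, the protease that sheds Areg, Ereg, Hbegf and Tgfa, was called higher by 0.37 under PBS (limma adjusted p = 0.0422). Under anti-PD-1 its difference was -0.05 (limma adjusted p = 0.824, not called).

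Under anti-PD-1, 3 of the 50 pathway genes were called higher and 3 lower in MC38 KO, a share near the 12.1% of all genes. The number ran from 3 without WT anti-PD-1 replicate 3 to 10 in the fit of all 24 libraries. Phlda1, an early response gene, was lower at 9.09 FPKM in KO than at 17.1 in WT (-0.83 ± 0.132, limma adjusted p = 0.00343). Under PBS the same gene was at 13.8 FPKM in KO and 10.5 in WT (0.36 ± 0.132, limma adjusted p = 0.0707, not called), and its interaction with treatment was called (-1.19 ± 0.186, limma adjusted p = 0.0195). Also lower in KO given anti-PD-1 was Plcg1, a phospholipase recruited to active EGFR, at 6.11 against 10.7 FPKM (-0.71 ± 0.139, limma adjusted p = 0.00896). Frmd8, which stabilises the ADAM17 cofactor iRhom, rose from 4.68 to 6.89 (0.48 ± 0.0985, limma adjusted p = 0.0115), and Sos2, a RAS exchange factor, from 4.39 to 5.51 (limma adjusted p = 0.0432).

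For anti-PD-1 against PBS in MC38 KO tumours 2 of 50 pathway genes were called higher and 2 lower, a share near the 8.99% of all genes. Ptpn1 and Rhbdf2, the gene of iRhom2, rose by 0.39 and 0.31 in log2 units (limma adjusted p = 0.0203 and 0.0361). Phlda1 and Lrig1, which promotes removal of ErbB receptors, fell by 0.55 each (limma adjusted p = 0.0249 and 0.0237). This count went to 0 in the fit of the 2 groups alone and when KO anti-PD-1 replicate 2 or KO PBS replicate 3 was left out. It went to 1 or 2 with any of KO PBS replicate 2 and KO anti-PD-1 replicates 1 and 3 left out, with no filter, or in the fit of all 24 libraries.

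In B16, 45 of the 58 pathway genes were tested. Under PBS none was called in KO by limma, and 4 had an unadjusted p under 0.05. Under anti-PD-1, 4 were called higher and 16 lower, and for anti-PD-1 against PBS in KO 4 higher and 17 lower. Both comparisons use the B16 KO anti-PD-1 libraries, in which 40.8% and 43.9% of all genes were called. Rescaling protein-coding genes moved the median of all genes in the first of them from -0.05 to -0.23. Lrig2 had the lowest log2 difference in both (-1.25 and -1.26; limma adjusted p = 1.90e-05 and 2.21e-05), followed by the ubiquitin ligase gene Cbl in the first (-1.10, limma adjusted p = 2.44e-05) and the kinase gene Braf in the second (-1.06, limma adjusted p = 1.39e-05). Ccnd1 (cyclin D1) and Etv5 were higher by 0.52 and 0.46 in the first (limma adjusted p = 0.0295 and 0.0279), and Rhbdf1 and Map2k2 by 0.44 and 0.42 in the second (limma adjusted p = 0.0239 and 0.00315). The summed FPKM and muscle markers of these libraries are given above, and their part in these values was not tested.

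Between the lines 26 of 50 pathway genes were called higher in MC38 and 15 lower, beside 79.6% of all genes called in either direction. None of the 13 inhibitors was called lower and 10 were called higher, with a list median of 0.73 beside 0.07 for all genes. Lrig1 was higher in MC38 by 4.70 in log2 units (limma adjusted p = 1.82e-21). Among ERK output genes Fosl1 was higher by 4.78 (limma adjusted p = 3.53e-22) and Dusp4 lower, with a difference of -3.69 (limma adjusted p = 2.68e-19). The inhibitors Lrig1 and Lrig3 and the output genes Fosl1, Etv4 and Epha2, all among the 26 called higher, did not pass the filter in B16. They entered this fit through MC38, so their direction here follows from the filter.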

How the data were processed

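RNA from whole tumours was sequenced in 24 libraries, 3 for each of 8 groups taken from the labels' condition field. Trizol was used to extract total RNA for Illumina libraries, and strand and read length are not given in the labels' protocols. Of tools and builds, Cuffnorm, STAR 2.5, DESeq, FastQC and mm10 are named in the submitters' processing notes without their roles. The deposited values were taken as FPKM: they are not whole numbers, and their sums differ between libraries. Counts were not used. The 55335 gene IDs were matched to GENCODE M21 (55154 matched, 181 did not). Depth was estimated from the value of 1 read in genes with 1 transcript, so read equivalents are approximate.

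Values were analysed as log2(FPKM + 1) in limma 3.58.1 (R 4.3.3), with 1 mean per group, a mean-variance trend and Benjamini-Hochberg adjustment, in 6 comparisons per line (14209 genes in MC38, 13627 in B16) and 2 over both lines (15655 genes). The fits of a line share 1 spread over its 12 libraries. Alternatives were a pseudocount of 0.1, other filters, 2 other scalings, other library sets, no trend and leaving out each library. The scripts were tested on simulated data. No pair of libraries shared more than 0.0302% of nonzero values, so none was a copy.

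The members, lists and tests were chosen with earlier results of these data known. All 8 members were described, called members were given with their test, and 2 pathway genes per direction were named in each of the 4 simple comparisons of a line; Adam17, Fosl1, Lrig1 and Dusp4 between lines and the window around Areg were chosen after their values were seen. Promoters came from RefSeq (GRCm38.p6), in which 5 members were matched and usable.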

Additional observations from a re-analysis of the deposited data

Results flagged for a closer look

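The KO effect differed between the tumour lines for 2 members, by the test of the difference itself in the fit of all 24 libraries. For Areg the averaged KO minus WT difference was 1.92 higher in MC38 than in B16 on the log2 scale (SE 0.315, limma adjusted p = 0.000152). For Ereg it was 1.24 higher (SE 0.116, limma adjusted p = 5.13e-07). In B16 both genes were under 1 FPKM in every library, so the B16 effect was measured near the floor. Both entered this fit through MC38 alone, so the difference between lines largely restates the MC38 effect.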

How the results depend on the processing

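The Areg and Ereg calls in MC38 held in all 20 alternatives under each treatment (Areg 1.83 to 3.22 under PBS and 1.87 to 3.54 under anti-PD-1, Ereg 1.12 to 1.46 and 1.22 to 1.57). No called member reversed. Leaving out 1 library gave 2 members called in every run for MC38 KO against WT under PBS, 3 to 5 under anti-PD-1, 1 for anti-PD-1 in KO, 3 to 5 averaged over treatments (5 without WT anti-PD-1 replicate 3, where Hbegf and Erbb2 were added), 6 between the lines and 2 to 3 for the KO effect between lines, and 0 in the other 8 comparisons. For anti-PD-1 in MC38 KO the count of 1 went to 2 with no filter (Btc) and 0 in the fit of all 24 libraries. For the averaged KO effect in B16 it went from 0 to 1 with protein-coding genes rescaled (Erbb2, -0.21, limma adjusted p = 0.0493), a scaling that moved the median of all genes from -0.05 to -0.16. For the KO effect between lines it went from 2 to 1 when 12 libraries had to reach 1 FPKM, since Areg was then not tested.

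All-gene counts moved by over 1.5 times in 8 comparisons. They ran from 2108 to 3336 (3329 as reported) for MC38 KO against WT under PBS, 837 to 1833 (1714) under anti-PD-1, 0 to 79 (0) for anti-PD-1 in WT, 616 to 1364 (1277) in KO and 45 to 725 (346) for the interaction. In B16 they ran from 10 to 331 (64) for KO under PBS and 0 to 3 (0) for anti-PD-1 in WT, and between lines from 1353 to 5006 (4898) for the KO effect. Pathway counts for that effect ran from 3 with PBS libraries alone to 27 with protein-coding rescaling (17). No paired analysis was possible because the labels give no replicate numbers. Low Areg values in WT and B16 rest on few reads, so the size of its fold difference is imprecise.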
